A study of Homo sapiens with 6 samples.

Results

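Histone and DNA modifying enzymes write, remove or oxidise the chemical marks of chromatin. Lysine methyltransferases and demethylases set methylation on histone tails, acetyltransferases and deacetylases set acetylation, and DNA methyltransferases and TET dioxygenases set methylation of cytosine. Methyltransferases draw on S-adenosylmethionine, most demethylases and the TET enzymes on iron and 2-oxoglutarate, and sirtuins on NAD, which ties the classes to cell metabolism. In small cell lung cancer, KDM1A and EZH2 have been studied as drug targets, and KMT2D, CREBBP and EP300 are among the chromatin genes mutated in tumours.

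The enzymes were taken from the count table by their approved symbols, in the KDM, KMT, SETD, EZH, EHMT, HDAC, SIRT, KAT, DNMT and TET series. Of 36458 symbols in the table, 68 fitted these series, 1 of them was set aside by the rule, and 67 were described. They were 15 lysine demethylases, 21 lysine methyltransferases, 11 zinc-dependent deacetylases, 7 sirtuins, 7 lysine acetyltransferases, 3 DNA methyltransferases and 3 TET dioxygenases. All 67 passed the filter on low counts, in a table where 17331 symbols did.

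Polyadenylated RNA was sequenced from the human line DMS114, derived from a small cell lung cancer, in 3 libraries exposed to 2.5 mM β-alanine for 48 h and 3 libraries given the same volume of vehicle. This amino acid does not occur in proteins and is a building block of carnosine. The labels do not say whether the libraries came from separate cultures, so each p-value refers to the spread among these 6 libraries alone, which may be technical. Total counts ran from 14433801 to 32909568 per library, and the 67 enzymes took between 0.661% and 0.687% of them. Of 11 genes used to mark neuroendocrine and other forms of this cancer, SYP averaged 86.3 ± 4.26 CPM after β-alanine and 61.02 ± 4.23 CPM in controls and CHGA 28.8 ± 2.41 CPM after β-alanine and 19.6 ± 2.06 CPM in controls (SD, n = 3 per group), where CPM is the count relative to the scaled library total. NEUROD1 averaged 1.91 ± 0.175 CPM after β-alanine and 2.28 ± 0.478 CPM in controls, and YAP1 129 ± 5.82 CPM after β-alanine and 124 ± 4.91 CPM in controls (SD, n = 3 per group). SYP, CHGA, CHGB and UCHL1 rose, NCAM1 fell, at 1.48 ± 0.107 CPM after β-alanine and 2.32 ± 0.291 CPM in controls (SD, n = 3 per group), NEUROD1, YAP1, ENO2 and DLL3 were not called, and POU2F3 and INSM1 were too low to be tested. The summed level of these 11 genes ran from 439.6 to 482 CPM after β-alanine and from 403 to 409.8 CPM in controls. All 4 fibroblast markers (DCN, LUM, PDGFRB and COL1A1) were present, summed at 242 to 259 CPM after β-alanine and 276 to 289 CPM in controls. DCN, which makes up most of that sum at 159 ± 6.82 CPM after β-alanine and 191 ± 5.03 CPM in controls (SD, n = 3 per group), fell, as did COL1A1, while PDGFRB rose and LUM was not called. A further 11 markers of blood, vessel and airway cells summed to under 1 CPM in every library. The part of these differences in the results was not tested, and in bulk RNA a change in the share of cells and a change in RNA per cell cannot be told apart. Over all genes tested, β-alanine library 1 stood apart from its group: its chi-square distance per gene was 4.22 and 4.92 to β-alanine libraries 2 and 3 and 5.21, 5.47 and 4.57 to control libraries 1, 2 and 3. By the same measure β-alanine libraries 2 and 3 were 2.25 apart, and lay between 12.2 and 16.5 from the controls. The distance was taken on raw counts and grows with depth. β-alanine library 1 had the lowest total, at 14433801 counts, against 27324339 and 32909568 in β-alanine libraries 2 and 3. Its distances to the controls are therefore not directly comparable with those of the deeper libraries. All pairs differed by more than sampling noise, so none was counted as a repeat of another.

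Exposure to β-alanine was accompanied by small changes in both directions. Of the 67 enzymes, 10 rose and 14 fell, where a call means a p under 0.05 after Benjamini-Hochberg adjustment over all genes, from the quasi-likelihood test of edgeR. These 24 were 35.8% of the enzymes, against 27.9% of all 17331 genes tested, of which 14.1% rose and 13.8% fell. In a separate fit on the 15427 genes with at least 1 CPM in 3 libraries, the share called was 31.1%. There 23 of the enzymes were called, HDAC11 being lost, so the enzymes' share lay near that of expressed genes. With library totals in place of TMM scaling, 12 rose and 9 fell, against 2745 and 2141 of all genes. Without the expression filter 10 rose and 10 fell, against 2552 and 2274 of all genes. Without β-alanine library 1, 16 rose and 17 fell, where 36.2% of all 17955 genes tested in that fit were called (17.8% rose and 18.3% fell). Without any 1 of treated libraries 2 and 3 and control libraries 1 and 2, between 7 and 8 rose and between 8 and 9 fell. The median log2 change (β-alanine over control) was -0.014 over the 67 enzymes and -0.0032 over all genes tested. Only DNMT3B, HDAC8 and SIRT6 among the 67 had a log2 change of 0.5 or more in size, as had 1574 of all genes tested.

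The groups did not overlap in CPM for 30 enzymes, 12 of them higher and 18 lower after β-alanine, where 39.1% of all genes tested did not overlap, 19.9% higher and 19.2% lower. Summed over the 67 enzymes the level was 6737 ± 28.4 CPM in treated libraries and 6779 ± 47.2 CPM in control libraries (mean ± SD of 3), with overlapping groups. The calls of 13 enzymes held in the main test and in all 15 alternative fits: SIRT6, HDAC5, KDM7A, KDM1B, KDM5B, KDM6B and SIRT1 rose, and DNMT3B, HDAC8, SETD2, EHMT2, KAT6B and KDM3B fell. The share of all genes whose calls held in every fit is not given here, so nothing particular to the enzymes is read from this count. Of these enzymes, KDM3B did not pass the stricter threshold of 0.01 (edgeR adjusted p = 0.0121). For the other 11 enzymes called, the libraries whose removal ended the call are named with their values. In the text, CPM values of single libraries are given in the order of libraries 1, 2 and 3. An enzyme that did not pass the test is not thereby shown to be equal in both groups.

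**Figure D1:**
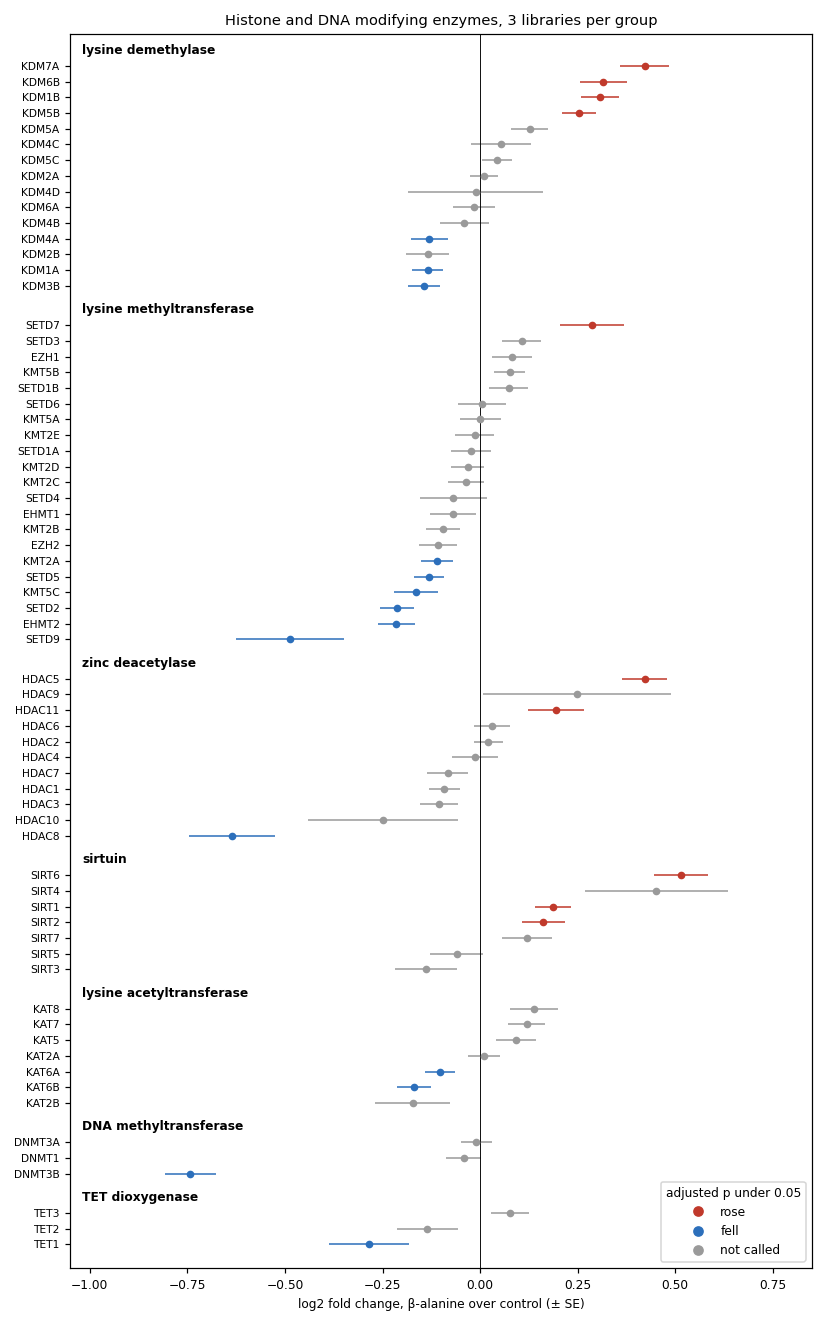
Log2 fold change of β-alanine over control with its standard error for each of the 67 enzymes, grouped by class and ordered by size, from 3 libraries per group. Red points rose, blue points fell and grey points did not pass an adjusted p of 0.05. The points run from -0.74 for DNMT3B to 0.51 for SIRT6.

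Lysine demethylases included 4 of the 10 enzymes that rose. KDM7A, KDM6B, KDM1B and KDM5B rose, KDM3B, KDM1A and KDM4A fell, and the other 8 of 15 were not called. Summed CPM of the class was 1811 ± 27.5 CPM in treated libraries and 1755 ± 5.98 CPM in control libraries (mean ± SD of 3), and the groups did not overlap. Among all genes tested 27.9% were called and 39.1% did not overlap, so nothing particular to the class is read from this. KDM7A removes methyl groups from histone H3 lysines 9 and 27 and lies on chromosome 7 from 140084746 to 140176983 (GRCh38.p14, RefSeq). It had 39.1, 44.6 and 44.7 CPM in the β-alanine libraries, against 32.9, 31.2 and 32.5 CPM in the control libraries. All 3 treated libraries lay above all 3 controls, with a log2 change of 0.42 ± 0.06 (SE, n = 3 per group; edgeR adjusted p = 3.52e-05). KDM6B, which removes methylation at lysine 27 and is induced by many stimuli, had 132, 160.0 and 159.6 CPM in the β-alanine libraries, against 120.5, 121 and 124 CPM in the control libraries. Library 1 showed the smallest rise, yet the groups did not overlap, and the comparison gave a log2 change of 0.32 ± 0.06 (SE, n = 3 per group; edgeR adjusted p = 0.0012). Its X-linked paralogue KDM6A averaged 44.1 ± 0.783 CPM after β-alanine and 44.5 ± 0.804 CPM in controls (SD, n = 3 per group), and the groups overlapped.

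The flavin-dependent demethylases of lysine 4 moved apart. KDM1B, which acts in oocytes of mice on imprinted genes, had 82.1, 92.6 and 88.1 CPM in the β-alanine libraries, against 70.3, 71.1 and 71.5 CPM in the control libraries. The treated libraries were all higher, with a log2 change of 0.31 ± 0.05 (SE, n = 3 per group; edgeR adjusted p = 7.30e-05). KDM1A, the LSD1 enzyme of corepressor complexes, had 290.2, 267 and 267 CPM in the β-alanine libraries, against 303, 306 and 295 CPM in the control libraries. It was lower in all 3 treated libraries, with a log2 change of -0.13 ± 0.04 (SE, n = 3 per group; edgeR adjusted p = 0.0144), a call lost without treated library 2 or 3 or control library 1 or 2 (edgeR adjusted p between 0.0551 and 0.0968). Per kilobase of annotated exon, KDM1A remained the more abundant of the pair, at 50.5 ± 2.44 CPM per kb in treated libraries and 55.4 ± 1.10 in control libraries, with KDM1B at 15.7 ± 0.944 CPM per kb in treated libraries and 12.7 ± 0.114 in control libraries (SD, n = 3 per group).

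KDM5 enzymes remove di- and trimethylation of lysine 4. KDM5B had 187, 209 and 209 CPM in the β-alanine libraries, against 171, 165 and 172 CPM in the control libraries. It was higher in all 3 treated libraries, with a log2 change of 0.25 ± 0.04 (SE, n = 3 per group; edgeR adjusted p = 0.000193). KDM5A had 99.5, 102 and 106 CPM in the β-alanine libraries, against 87.4, 95.7 and 98.8 CPM in the control libraries, also without overlap, but did not pass at a log2 change of 0.13 ± 0.05 (SE, n = 3 per group; edgeR adjusted p = 0.0537). KDM5C averaged 228 ± 6.21 CPM after β-alanine and 222 ± 5.94 CPM in controls (SD, n = 3 per group) and overlapped.

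Of the KDM3 and KDM4 enzymes, which act on lysine 9, KDM3B, the 1 KDM3 enzyme examined, and KDM4A fell. KDM3B, an eraser of lysine 9 methylation, had 114, 119 and 121 CPM in the β-alanine libraries, against 132, 129.9 and 131 CPM in the control libraries, a separation of all libraries with a log2 change of -0.14 ± 0.04 (SE, n = 3 per group; edgeR adjusted p = 0.0121). KDM4A, which acts on lysines 9 and 36, had 73.2, 68.2 and 68.6 CPM in the β-alanine libraries, against 78.5, 76.8 and 73.8 CPM in the control libraries. The treated libraries lay just below the controls, with a log2 change of -0.13 ± 0.05 (SE, n = 3 per group; edgeR adjusted p = 0.0465), and the call was lost without treated library 2 or 3 or control library 1 or 2 (edgeR adjusted p between 0.138 and 0.185). It was also lost with library totals, without the expression filter, with the DESeq2 Wald test, without robust shrinkage and with thinned counts. KDM4A shares up to 49.1% of its exon length with AL451062.3 on the same strand and its antisense gene KDM4A-AS1 in GENCODE 29. Its count is therefore uncertain. KDM4B averaged 37.6 ± 3.04 CPM after β-alanine and 38.3 ± 1.30 CPM in controls, KDM4C 26.2 ± 3.11 CPM after β-alanine and 25.5 ± 0.623 CPM in controls and KDM4D 2.71 ± 0.272 CPM after β-alanine and 2.71 ± 0.241 CPM in controls, with overlap. KDM2A, which acts on lysine 36, overlapped too, at 380.0 ± 6.57 CPM after β-alanine and 378 ± 7.16 CPM in controls (SD, n = 3 per group). KDM2B was lower in all treated libraries at 43.7 ± 1.80 CPM after β-alanine and 47.7 ± 1.86 CPM in controls (SD, n = 3 per group) but was not called (edgeR adjusted p = 0.0756).

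The promoter windows of KDM7A and KDM1B are shown because they had the smallest p-values among the enzymes that rose and whose RefSeq window begins at the annotated 5′ end of the gene. The windows run from 250 bases before to 50 bases after the start, at chr7:140176934-140177233 on the minus strand and chr6:18155172-18155471 on the plus strand (GRCh38.p14, RefSeq), and are written 5′ to 3′ on the strand of the gene. Capitals mark matches, on either strand, to any of 5 short motifs, the GC box, the CCAAT box, the cAMP response element core, the E2F site core and the E-box, whose letters follow.
KDM7A: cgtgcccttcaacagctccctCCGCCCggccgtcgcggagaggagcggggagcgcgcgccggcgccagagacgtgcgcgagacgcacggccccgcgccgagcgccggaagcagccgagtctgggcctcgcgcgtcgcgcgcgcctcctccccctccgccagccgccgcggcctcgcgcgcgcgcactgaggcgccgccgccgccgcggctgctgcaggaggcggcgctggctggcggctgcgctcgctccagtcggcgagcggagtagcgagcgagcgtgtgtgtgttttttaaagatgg
KDM1B: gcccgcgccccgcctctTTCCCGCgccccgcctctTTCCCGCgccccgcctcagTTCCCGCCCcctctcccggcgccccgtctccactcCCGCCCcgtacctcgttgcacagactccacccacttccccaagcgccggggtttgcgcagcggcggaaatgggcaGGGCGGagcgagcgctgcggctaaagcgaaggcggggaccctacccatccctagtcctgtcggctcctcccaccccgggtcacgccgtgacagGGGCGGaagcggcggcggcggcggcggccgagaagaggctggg
KDM7A's window held 1 GC box among 56 CpG dinucleotides, and that of KDM1B held 4 GC boxes and 3 E2F site cores, 1 of which overlapped a GC box, among 39 CpG dinucleotides. Windows were found for 62 of the 67 enzymes. The GC box, GGGCGG, was present in 43 of the 62, against 69.2% of windows of the genes tested and 43.96% of all 27305 windows, and the CCAAT box in 17, against 35.7% and 35.3%. The E2F site core, TTCCCGC, was present in 5, against 10.1% and 6.53%, the core of the cAMP response element, TGACGT, in 5, against 10.9% and 8.09%, and the E-box, CACGTG, in 9, against 9.79% and 7.31%. A match is only a run of letters and does not show binding.

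Of the 7 lysine methyltransferases called, 6 fell, and with DESeq2 4 fell and 1 rose. Of 21, EHMT2, SETD2, SETD5, SETD9, KMT5C and KMT2A fell, SETD7 rose, and 14 were not called. Summed CPM was 2323 ± 11.1 CPM in treated libraries and 2400.4 ± 39.1 CPM in control libraries (mean ± SD of 3), with all treated libraries below all controls. The share called was 33.3%, against 27.9% of all genes tested, of which 39.1% did not overlap. Nothing particular to the class is read from this. SETD2, which places trimethylation on lysine 36 of histone H3 along transcribed genes, had 104, 101 and 107 CPM in the β-alanine libraries, against 119, 118 and 124 CPM in the control libraries. The groups did not overlap, with a log2 change of -0.21 ± 0.04 (SE, n = 3 per group; edgeR adjusted p = 0.000776). EHMT2, the G9a methyltransferase of lysine 9, had 206, 184 and 185 CPM in the β-alanine libraries, against 219, 234 and 213 CPM in the control libraries. It was lower in all treated libraries, with a log2 change of -0.21 ± 0.05 (SE, n = 3 per group; edgeR adjusted p = 0.00178). EHMT2-AS1 overlaps 8.12% of its exon length on the other strand, and how strand was used is not stated. EHMT1, its partner in the G9a and GLP heterodimer, averaged 64.6 ± 4.42 CPM after β-alanine and 67.2 ± 5.16 CPM in controls (SD, n = 3 per group), with overlap.

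The promoter window of EHMT2, at chr6:31897649-31897948 on the minus strand (GRCh38.p14, RefSeq), is shown as that of the fallen methyltransferase with the smallest p-value among those whose window begins at the gene's 5′ end, with the same motifs in capitals.
EHMT2: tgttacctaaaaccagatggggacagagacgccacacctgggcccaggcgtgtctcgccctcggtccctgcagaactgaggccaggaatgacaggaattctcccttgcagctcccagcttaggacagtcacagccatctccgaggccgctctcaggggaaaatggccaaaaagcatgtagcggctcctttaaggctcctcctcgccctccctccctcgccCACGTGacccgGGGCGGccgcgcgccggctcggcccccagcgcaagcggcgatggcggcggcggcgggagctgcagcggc
It held 1 GC box and 1 E-box.

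KMT2 and SETD1 enzymes place methylation on lysine 4. KMT2A, the MLL1 enzyme, had 189, 197 and 202 CPM in the β-alanine libraries, against 204, 211 and 220.0 CPM in the control libraries. The treated libraries lay just below the controls, with a log2 change of -0.11 ± 0.04 (SE, n = 3 per group; edgeR adjusted p = 0.0472), and the call was lost without treated library 1 or 2 or control library 2 or 3 (edgeR adjusted p between 0.05004 and 0.203), as well as with library totals, without the expression filter, with the DESeq2 Wald test, with limma-voom and without robust shrinkage. Up to 18.9% of KMT2A's exon length is shared with AP001267.5 on the same strand and AP001267.3 on the other, so its count is uncertain. KMT2B, KMT2C, KMT2D, KMT2E, SETD1A and SETD1B were not called, and their groups overlapped. KMT2B averaged 174 ± 10.4 CPM after β-alanine and 186 ± 2.19 CPM in controls, and KMT2E 79.7 ± 4.71 CPM after β-alanine and 80.9 ± 2.03 CPM in controls (SD, n = 3 per group). SETD1A averaged 57.4 ± 2.89 CPM after β-alanine and 58.2 ± 0.990 CPM in controls, and SETD1B 62.7 ± 2.90 CPM after β-alanine and 59.8 ± 1.3 CPM in controls (SD, n = 3 per group). KMT2D, which acts at enhancers, averaged 275 ± 14.3 CPM after β-alanine and 281 ± 11.7 CPM in controls, and KMT2C averaged 111 ± 4.32 CPM after β-alanine and 114 ± 5.67 CPM in controls (SD, n = 3 per group).

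The catalytic subunits of Polycomb repressive complex 2, which methylates lysine 27, did not pass. EZH2 had 69.3, 67.2 and 63.6 CPM in the β-alanine libraries, against 70.01, 71.04 and 73.9 CPM in the control libraries. It was lower in all 3 treated libraries, but at a log2 change of -0.11 ± 0.05 (SE, n = 3 per group) it was not called (edgeR adjusted p = 0.108). Without β-alanine library 1 it was called, at a log2 change of -0.14 (edgeR adjusted p = 0.0173), but with no other library left out (edgeR adjusted p up to 0.398). EZH1, which is also found in cells that do not divide, averaged 73.2 ± 3.43 CPM after β-alanine and 69.4 ± 3.05 CPM in controls (SD, n = 3 per group), with overlap.

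Among H4 lysine 20 enzymes, KMT5C, which adds di- and trimethylation, had 36.5, 35.2 and 35.9 CPM in the β-alanine libraries, against 39.4, 39.98 and 40.9 CPM in the control libraries. It was lower in all treated libraries, with a log2 change of -0.16 ± 0.06 (SE, n = 3 per group; edgeR adjusted p = 0.0331), a call lost without treated library 2 or 3 or control library 1, 2 or 3 (edgeR adjusted p between 0.0627 and 0.13) and with library totals, without the expression filter and with the DESeq2 Wald test. KMT5B averaged 467 ± 22.8 CPM after β-alanine and 444 ± 10.6 CPM in controls, and KMT5A, the monomethyltransferase, averaged 55.9 ± 2.44 CPM after β-alanine and 55.8 ± 0.928 CPM in controls (SD, n = 3 per group), both with overlap. Within the remaining SETD genes, SETD7, which also methylates proteins other than histones, had 16.4, 17.03 and 17.6 CPM in the β-alanine libraries, against 13.03, 14.6 and 14.3 CPM in the control libraries. It was higher in all treated libraries, with a log2 change of 0.29 ± 0.08 (SE, n = 3 per group; edgeR adjusted p = 0.0121), lost without treated library 3 or control library 1 (edgeR adjusted p between 0.065 and 0.0707). SETD5 had 176, 178 and 178 CPM in the β-alanine libraries, against 198, 191 and 194 CPM in the control libraries, a separation of all libraries. The comparison gave a log2 change of -0.13 ± 0.04 (SE, n = 3 per group; edgeR adjusted p = 0.0127), lost without control library 1 (edgeR adjusted p = 0.0655). SETD9, a gene at a low level, had 3.69, 3.68 and 3.30 CPM in the β-alanine libraries, against 5.14, 4.82 and 4.89 CPM in the control libraries. Its groups did not overlap, with a log2 change of -0.49 ± 0.14 (SE, n = 3 per group; edgeR adjusted p = 0.0112), lost without treated library 3 (edgeR adjusted p = 0.0712). SETD3, which methylates actin, averaged 65.2 ± 2.08 CPM after β-alanine and 60.5 ± 2.48 CPM in controls (SD, n = 3 per group) and overlapped, as did SETD4 at 13.9 ± 0.977 CPM after β-alanine and 14.5 ± 0.239 CPM in controls and SETD6 at 30.3 ± 0.558 CPM after β-alanine and 30.1 ± 0.760 CPM in controls.

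Zinc-dependent deacetylases showed a pair of rises and 1 fall among 11. HDAC5 and HDAC11 rose, HDAC8 fell, and the other 8 were not called. The summed level was 1009 ± 29.6 CPM in treated libraries and 1004 ± 4.90 CPM in control libraries (mean ± SD of 3), with overlap. HDAC5, a class IIa enzyme that shuttles between nucleus and cytoplasm and lies on chromosome 17 from 44076753 to 44123641 (GRCh38.p14, RefSeq), had 99.7, 87.1 and 83.99 CPM in the β-alanine libraries, against 64.1, 70.1 and 66.3 CPM in the control libraries. Library 1 was the highest, in contrast to most enzymes that rose, and the comparison gave a log2 change of 0.42 ± 0.06 (SE, n = 3 per group; edgeR adjusted p = 2.23e-05). The other class IIa genes overlapped between groups, with HDAC4 at 44.7 ± 3.37 CPM after β-alanine and 44.8 ± 1.28 CPM in controls and HDAC7 at 45.7 ± 1.67 CPM after β-alanine and 48.6 ± 0.974 CPM in controls (SD, n = 3 per group). HDAC9 averaged 1.67 ± 0.344 CPM after β-alanine and 1.35 ± 0.282 CPM in controls (SD, n = 3 per group), the lowest level of the 67.

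HDAC8, an X-linked class I enzyme that deacetylates the cohesin subunit SMC3, had 6.89, 5.91 and 5.93 CPM in the β-alanine libraries, against 9.03, 9.51 and 10.1 CPM in the control libraries. The groups did not overlap, with a log2 change of -0.64 ± 0.11 (SE, n = 3 per group; edgeR adjusted p = 0.000195). Its window, at chrX:72572794-72573093 on the minus strand (GRCh38.p14, RefSeq), is shown as that of the fallen enzyme with the smallest p-value among those whose window begins at the gene's 5′ end. It matched none of the 5 motifs.
HDAC8: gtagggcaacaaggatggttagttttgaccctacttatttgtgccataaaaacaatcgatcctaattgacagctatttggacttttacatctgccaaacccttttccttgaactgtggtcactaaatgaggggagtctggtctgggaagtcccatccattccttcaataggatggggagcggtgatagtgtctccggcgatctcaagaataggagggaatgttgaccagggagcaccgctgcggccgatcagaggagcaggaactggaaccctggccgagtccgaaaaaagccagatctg
It held 9 CpG dinucleotides, against a median of 30 in the 62 windows of the enzymes and 26 in those of the genes tested. The class I enzymes of the large corepressor complexes were not called. HDAC1 averaged 286 ± 13.4 CPM after β-alanine and 304 ± 6.07 CPM in controls, HDAC2 averaged 353 ± 8.69 CPM after β-alanine and 348 ± 7.41 CPM in controls, and HDAC3 averaged 58.1 ± 1.21 CPM after β-alanine and 62.7 ± 1.55 CPM in controls (SD, n = 3 per group). HDAC3 was lower in all treated libraries (edgeR adjusted p = 0.11), and HDAC1 was called without β-alanine library 1, at a log2 change of -0.13 (edgeR adjusted p = 0.00226). HDAC1 was called with no other library left out (edgeR adjusted p up to 0.333). HDAC11, the class IV enzyme, had 22.5, 24.9 and 24.9 CPM in the β-alanine libraries, against 20.1, 21.6 and 21.9 CPM in the control libraries. It was higher in all treated libraries, with a log2 change of 0.19 ± 0.07 (SE, n = 3 per group; edgeR adjusted p = 0.0471), but the call was lost without treated library 2 or 3 or control library 1, 2 or 3 (edgeR adjusted p between 0.0752 and 0.176) and in 4 of the other alternatives. HDAC6, a cytoplasmic tubulin deacetylase, averaged 96.98 ± 3.97 CPM after β-alanine and 95.04 ± 2.89 CPM in controls, and HDAC10, which deacetylates polyamines, 2.13 ± 0.331 CPM after β-alanine and 2.45 ± 0.385 CPM in controls (SD, n = 3 per group), both with overlap.

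Each of the 3 sirtuins called rose. Of 7, SIRT1, SIRT2 and SIRT6 rose, none fell, and 4 were not called. None fell either at an unadjusted p under 0.05 in edgeR, or with DESeq2 or limma-voom, but DESeq2 called 2 of the 3 that rose. Their summed CPM was 272 ± 9.21 CPM in treated libraries and 244 ± 5.92 CPM in control libraries (mean ± SD of 3), without overlap of the groups. Of all genes tested, 14.1% rose, 13.8% fell and 39.1% did not overlap, so nothing particular to the 7 sirtuins is read from this. SIRT6, a chromatin-bound deacetylase of histone H3 that lies on chromosome 19 from 4174109 to 4182563 (GRCh38.p14, RefSeq), had 30.005, 30.7 and 33.4 CPM in the β-alanine libraries, against 22.1, 23.2 and 20.9 CPM in the control libraries. Each treated library exceeded each control, with a log2 change of 0.51 ± 0.07 (SE, n = 3 per group; edgeR adjusted p = 1.29e-05). SIRT1, a nuclear deacetylase of histones and p53, had 85.98, 91.5 and 88.6 CPM in the β-alanine libraries, against 81.4, 75.4 and 77.6 CPM in the control libraries, also without overlap and with a log2 change of 0.19 ± 0.05 (SE, n = 3 per group; edgeR adjusted p = 0.00455). SIRT2, a mostly cytosolic deacetylase, had 62.2, 71.3 and 73.7 CPM in the β-alanine libraries, against 63.7, 60.6 and 62.3 CPM in the control libraries. Its library 1 lay within the range of the controls. The comparison gave a log2 change of 0.16 ± 0.06 (SE, n = 3 per group; edgeR adjusted p = 0.0338), lost without treated library 2 or 3 or control library 1, 2 or 3 (edgeR adjusted p between 0.0532 and 0.233), with the DESeq2 Wald test and with thinned counts.

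SIRT7, a nucleolar member, averaged 36.04 ± 1.72 CPM after β-alanine and 33.4 ± 2.11 CPM in controls (SD, n = 3 per group) and overlapped. Among the mitochondrial sirtuins, SIRT5 averaged 27.9 ± 2.15 CPM after β-alanine and 28.8 ± 0.686 CPM in controls (SD, n = 3 per group), with overlap. SIRT3 averaged 14.8 ± 0.204 CPM after β-alanine and 16.3 ± 0.448 CPM in controls (SD, n = 3 per group), lower in all treated libraries but not called (edgeR adjusted p = 0.209). SIRT4 had 3.62, 3.87 and 3.93 CPM in the β-alanine libraries, against 2.27, 2.27 and 3.88 CPM in the control libraries. Control library 3 reached the treated libraries, and the comparison gave a log2 change of 0.45 ± 0.18 (SE, n = 3 per group; edgeR adjusted p = 0.0714). SIRT4 passed without control library 3, at a log2 change of 0.75 (edgeR adjusted p = 0.00631), without β-alanine library 1, at a log2 change of 0.47 (edgeR adjusted p = 0.0392), and with thinned counts.

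Of 7 lysine acetyltransferases, KAT6A and KAT6B fell and 5 were not called. Their summed CPM was 751 ± 20.6 CPM in treated libraries and 774 ± 4.88 CPM in control libraries (mean ± SD of 3), with overlap. KAT6B, the MORF enzyme of the MYST family, had 103, 109 and 111 CPM in the β-alanine libraries, against 119, 124 and 120.4 CPM in the control libraries. Its groups did not overlap, with a log2 change of -0.17 ± 0.04 (SE, n = 3 per group; edgeR adjusted p = 0.00516). KAT6A, its paralogue MOZ, had 285, 300.4 and 309 CPM in the β-alanine libraries, against 316, 322 and 324 CPM in the control libraries. It was lower in all treated libraries, with a log2 change of -0.10 ± 0.04 (SE, n = 3 per group; edgeR adjusted p = 0.0481), a call lost without treated library 1 or 2 or control library 1, 2 or 3 (edgeR adjusted p between 0.073 and 0.138) and with library totals, without the expression filter, with the DESeq2 Wald test, without robust shrinkage and with thinned counts. The MYST enzymes KAT7 and KAT8 were higher in all treated libraries, KAT7 at 86.8 ± 4.07 CPM after β-alanine and 80.2 ± 1.86 CPM in controls and KAT8 at 34.9 ± 1.81 CPM after β-alanine and 31.7 ± 0.181 CPM in controls (SD, n = 3 per group), but neither passed (edgeR adjusted p = 0.0628 and 0.0988). KAT2A, the GCN5 enzyme of the SAGA complex, averaged 151 ± 5.56 CPM after β-alanine and 150.0 ± 2.75 CPM in controls, and its paralogue KAT2B 11.7 ± 0.739 CPM after β-alanine and 13.1 ± 1.33 CPM in controls (SD, n = 3 per group), both with overlap. KAT5, the TIP60 enzyme, also overlapped, at 61.3 ± 2.99 CPM after β-alanine and 57.8 ± 0.960 CPM in controls (SD, n = 3 per group), and RNASEH2C shares 38.6% of its exon length on the other strand.

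DNMT3B, a de novo DNA methyltransferase on chromosome 20 from 32762385 to 32809356 (GRCh38.p14, RefSeq), was the enzyme with the largest fall and the smallest p-value of the 67. It had 35.9, 31.003 and 32.4 CPM in the β-alanine libraries, against 55.96, 58.7 and 50.1 CPM in the control libraries. The highest treated library lay well below the lowest control, with a log2 change of -0.74 ± 0.07 (SE, n = 3 per group; edgeR adjusted p = 1.04e-07), or 40.3% lower. In the 6 fits that left out 1 library each, the log2 change stayed between -0.81 and -0.69. The other de novo enzyme, DNMT3A, had 167, 159.7 and 166 CPM in the β-alanine libraries, against 163, 164 and 170.0 CPM in the control libraries, with overlap. DNMT1, which copies methylation at replication, had 268, 236 and 235 CPM in the β-alanine libraries, against 255, 257 and 248 CPM in the control libraries. Treated library 1 was higher and libraries 2 and 3 were lower than every control. DNMT1 was not called on all 6 libraries (edgeR adjusted p = 0.535) and was called without β-alanine library 1, at a log2 change of -0.11 (edgeR adjusted p = 0.0135). It was called with no other library left out (edgeR adjusted p up to 0.904).

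TET1, a dioxygenase that oxidises methylcytosine, had 11.6, 8.86 and 10.4 CPM in the β-alanine libraries, against 12.3, 12.8 and 11.98 CPM in the control libraries. It was lower in all treated libraries, with a log2 change of -0.28 ± 0.10 (SE, n = 3 per group; edgeR adjusted p = 0.0398), but the call was lost without treated library 2 or 3 or control library 1, 2 or 3 (edgeR adjusted p between 0.0667 and 0.266), with library totals and with the DESeq2 Wald test. TET2 averaged 19.5 ± 1.59 CPM after β-alanine and 21.5 ± 0.740 CPM in controls and TET3, the most abundant of the family per kilobase of exon, averaged 98.2 ± 5.53 CPM after β-alanine and 93.5 ± 3.92 CPM in controls (SD, n = 3 per group), both with overlap.

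**Figure D2:**
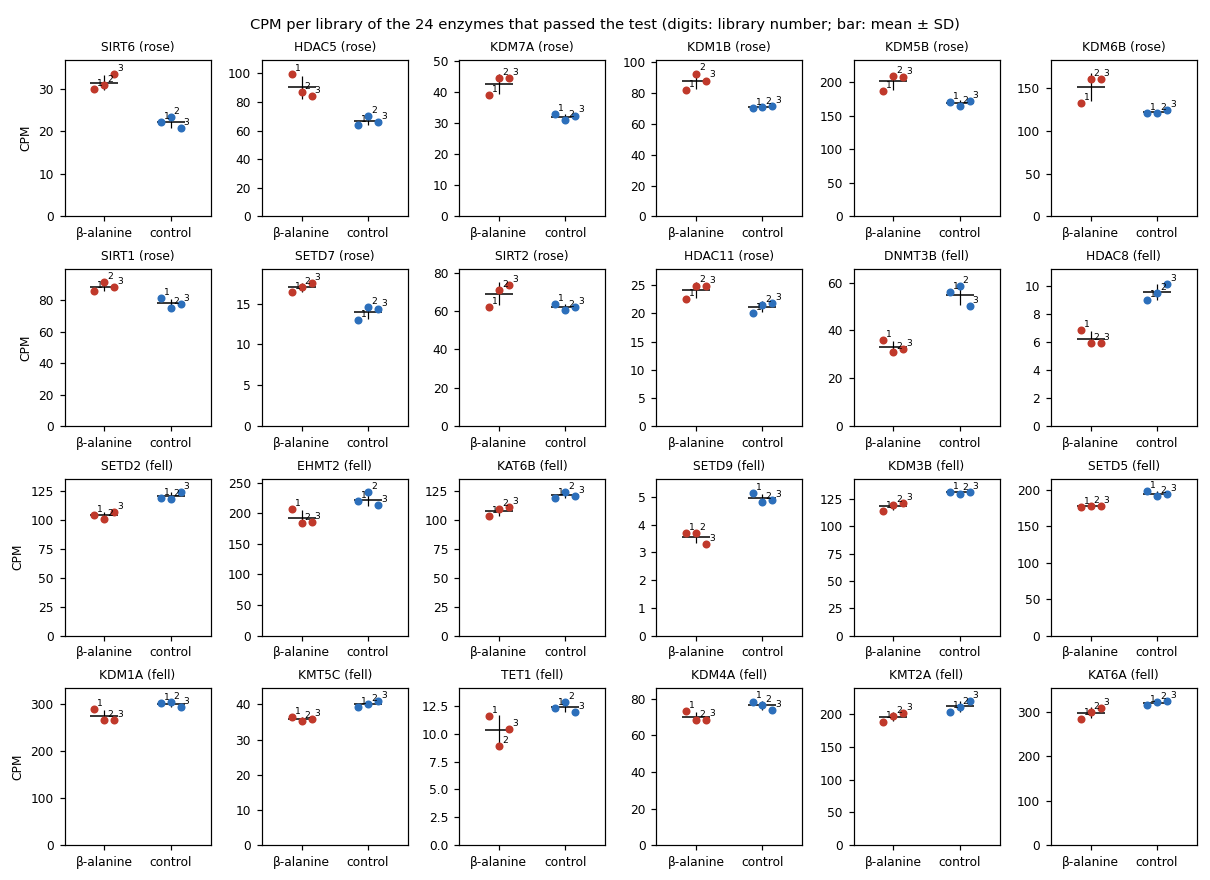
CPM in each library of the 24 enzymes that passed the test, β-alanine on the left and control on the right of each panel, with axes from 0. Digits are library numbers and bars are means ± SD of 3 libraries. The first 10 panels rose and the last 14 fell, and only SIRT2 has groups that overlap.

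**Figure D3:**
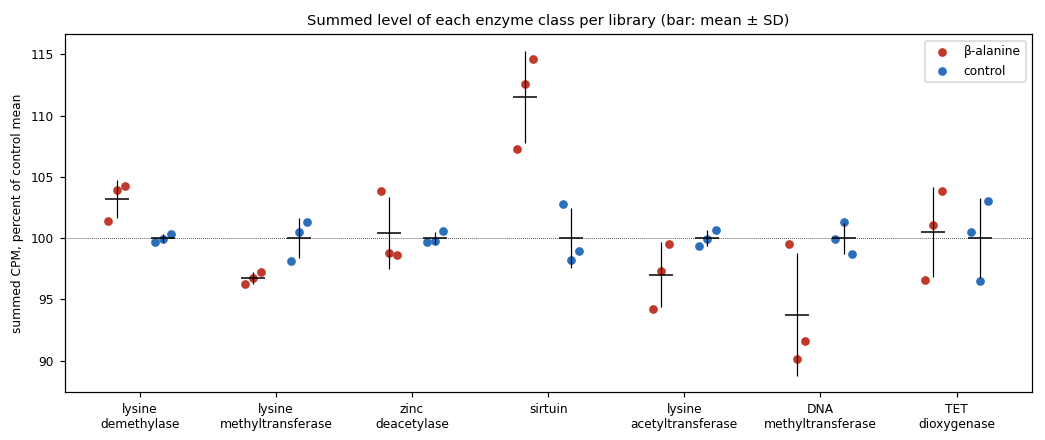
Summed CPM of each enzyme class per library as a percentage of the control mean, with means ± SD of 3 libraries. Sirtuins and demethylases lie above the controls in all 3 treated libraries and methyltransferases below, while the other 4 classes overlap. Of single genes tested, 39.1% did not overlap, so nothing particular to the classes is read from this. Within them, the KDM3 and KDM4 sums lay below the controls, the KDM5, KDM6 and KDM7 sums above, and the mitochondrial sirtuins overlapped. The vertical axis does not start at 0.

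Levels of different enzymes were compared per kilobase of all annotated exons, a measure that understates the level of genes with long, rarely used exons. By this measure HDAC1 was highest, at 72.04 ± 3.37 CPM per kb in treated libraries and 76.6 ± 1.53 in control libraries (SD, n = 3 per group), followed in controls by KDM1A, KMT5B, KAT2A and KDM2A. KMT5B stood at 54.1 ± 2.65 CPM per kb in treated libraries and 51.4 ± 1.23 in control libraries (SD, n = 3 per group), near KDM1A. KDM1A was above KMT5B in all 3 control libraries and in treated library 1 and below it in treated libraries 2 and 3, so their order does not separate the groups. HDAC10, HDAC8 and HDAC9 were lowest. MAPK12 shares 55.8% of the exon length of HDAC10 on the same strand, so the level and rank of HDAC10 are uncertain. Among DNA methyltransferases the order was DNMT1, DNMT3A and DNMT3B in both groups, with DNMT3B at 7.15 ± 0.548 CPM per kb in treated libraries and 11.9 ± 0.944 in control libraries and DNMT3A at 13.7 ± 0.345 CPM per kb in treated libraries and 13.8 ± 0.330 in control libraries (SD, n = 3 per group).

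Paralogues and opposing enzymes were set against each other by the ratio of their CPM in each library, as a description without a test. Of 28 pairs, 13 had ratios that did not overlap between groups, several of them with a gene in common. The share among gene pairs in general was not computed, and 39.1% of single genes did not overlap, so nothing particular to these pairs is read from the count. The DNMT3B to DNMT1 ratio was 0.134, 0.131 and 0.138 in the β-alanine libraries, against 0.219, 0.228 and 0.202 in the control libraries. It was thus lower in each treated library, including library 1, where DNMT1 was high. The HDAC4 to HDAC5 ratio was 0.496 ± 0.0229 in treated libraries and 0.672 ± 0.0468 in control libraries (mean ± SD of 3), and the HDAC3 to HDAC8 ratio 9.36 ± 0.973 in treated libraries and 6.58 ± 0.544 in control libraries (mean ± SD of 3). The KDM1B to KDM1A ratio was 0.320 ± 0.0331 in treated libraries and 0.236 ± 0.00617 in control libraries (mean ± SD of 3). For lysine 27, the ratio of the eraser KDM6B to the writer EZH2 was 1.91, 2.38 and 2.51 in the β-alanine libraries, against 1.72, 1.70 and 1.68 in the control libraries. It was higher in every treated library and least so in library 1. The KAT6A to KAT6B ratio was 2.78 ± 0.0162 in treated libraries and 2.65 ± 0.050 in control libraries (mean ± SD of 3), a small difference without overlap. The KMT2C to KMT2D ratio overlapped, at 0.404 ± 0.0175 in treated libraries and 0.406 ± 0.00410 in control libraries (mean ± SD of 3).

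**Figure D4:**
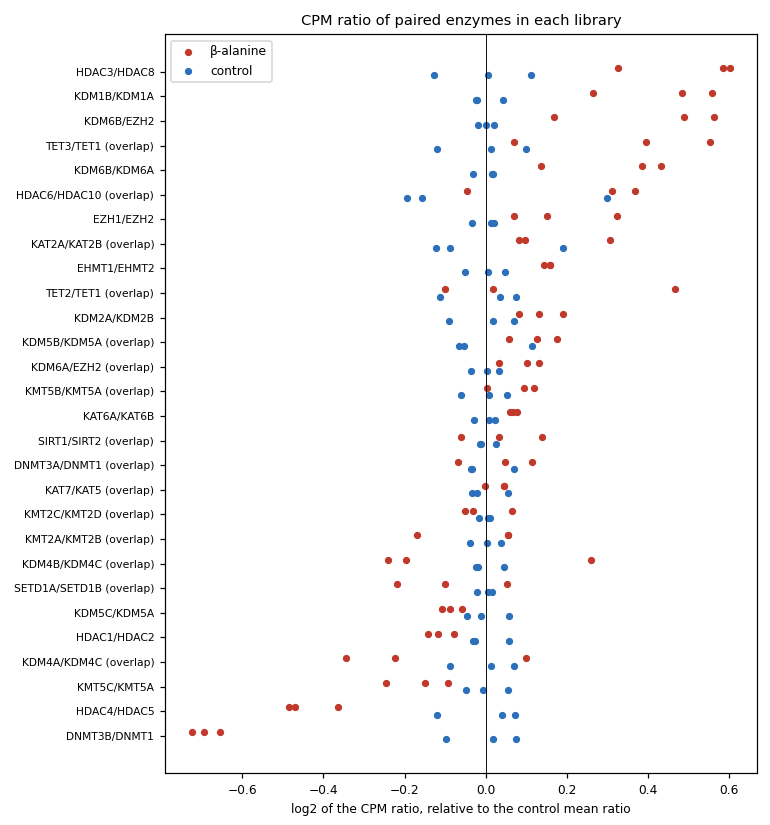
CPM ratio of 28 pairs of enzymes in each library, as log2 relative to the mean ratio of the 3 controls, with β-alanine points drawn above control points. Pairs marked as overlapping have ratios that overlap between the groups. The DNMT3B/DNMT1 ratio lies lowest and the HDAC3/HDAC8 ratio highest.

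The 3 treated libraries did not shift equally. Among the 24 enzymes called, β-alanine library 1 had the smallest shift from the control mean for 17 enzymes, library 3 for 7 and library 2 for none. The median absolute log2 shift was 0.17, 0.26 and 0.25 in libraries 1, 2 and 3. For KDM6B the log2 shifts were 0.12, 0.40 and 0.39, and for DNMT1 0.08, -0.10 and -0.11. HDAC5 ran the other way, at 0.58, 0.38 and 0.33. A list of 26 genes of S phase lay at -0.03, -0.30 and -0.31 on the log2 scale in the same 3 libraries, with the mean of the controls as 0. Of these genes 15 fell in edgeR, 13 in DESeq2 and 18 in limma-voom, where 13.8% of all genes tested fell in edgeR, and none rose in any of the 3 tools or at an unadjusted p under 0.05 in edgeR. The part of this list in the changes of DNMT1, EZH2 and the other enzymes was not tested. Without β-alanine library 1, 33 enzymes were called, against 36.2% of all 17955 genes tested in that fit (17.8% rose and 18.3% fell). KAT6A and KMT2A were no longer among them, and 11 others were added: HDAC1, EZH2, KDM2B, DNMT1 and KMT2B fell, and TET3, KAT5, KMT5B, KDM5A, SIRT4 and KAT7 rose. By class the counts without that library were 5 demethylases that rose and 4 that fell, 2 methyltransferases that rose and 7 that fell, 2 zinc deacetylases in each direction, 4 sirtuins that rose, 2 acetyltransferases that rose and 1 that fell, 2 DNA methyltransferases that fell, and 1 TET enzyme in each direction. With any other library left out, between 1 and 3 demethylases fell, 4 methyltransferases fell, and 2 or 3 sirtuins rose.

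**Figure D5:**
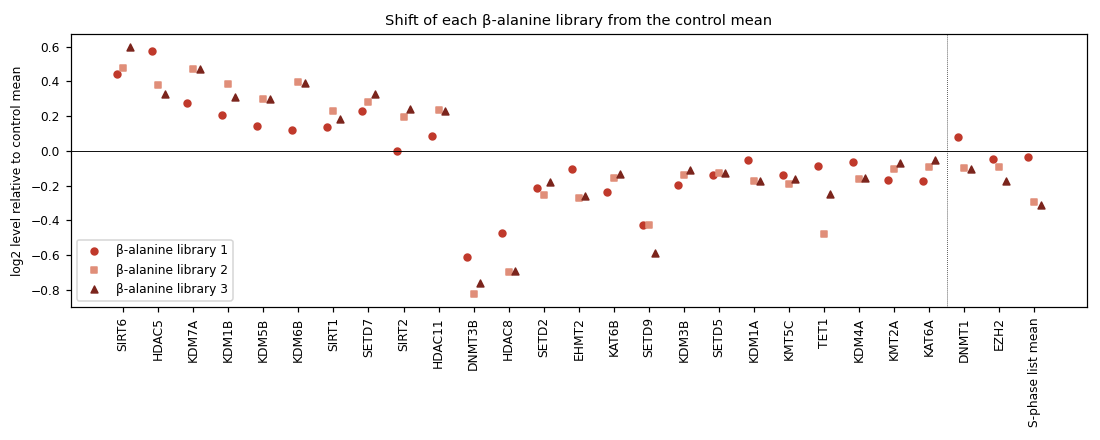
Log2 level of the 24 enzymes called, and of DNMT1, EZH2 and the mean of the S-phase list, in each β-alanine library relative to the mean of the 3 controls. Circles are library 1, squares library 2 and triangles library 3. Circles lie closest to 0 for 17 of the 24 enzymes, and for the S-phase list library 1 lies at -0.03.

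Genes that work with these enzymes were also described, and the share called among them is to be read against 27.9%. Over the 12 lists of such genes, which do not include the S-phase list, 25 rose and 21 fell. By list, the share called ran from 0% for the corepressors of HDAC3 to 40% for the cofactor genes and the DNA methylation list. Without β-alanine library 1, where 36.2% of all genes tested were called, 33 rose and 47 fell, and in the S-phase list 24 of 26 fell. The share over the 12 lists together was not computed, so nothing particular to them is read from these counts. Of 10 partners and readers of DNA methylation tested, 2 rose and 2 fell. UHRF1, which brings DNMT1 to replicated DNA, averaged 47.3 ± 6.12 CPM after β-alanine and 63.3 ± 3.00 CPM in controls (SD, n = 3 per group), with a log2 change of -0.44 ± 0.07 (SE, n = 3 per group; edgeR adjusted p = 0.000395). CDCA7, needed with HELLS for methylation of repeats, fell, with a log2 change of -0.45 ± 0.06 (SE, n = 3 per group; edgeR adjusted p = 9.06e-06). MBD1, a reader of methylated DNA, rose with a log2 change of 0.25 ± 0.05 (SE, n = 3 per group; edgeR adjusted p = 0.000568), and TDG, the glycosylase that excises oxidised methylcytosine, with a log2 change of 0.25 ± 0.05 (SE, n = 3 per group; edgeR adjusted p = 0.000765).

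Of 15 genes that supply cofactors, 6 rose and none fell in edgeR (3 were lower at an unadjusted p under 0.05, 1 with limma-voom and 0 with DESeq2). Without β-alanine library 1, 7 rose and 4 fell. NAMPT, the rate-limiting enzyme of NAD salvage, averaged 99.8 ± 10.4 CPM after β-alanine and 77.3 ± 5.39 CPM in controls (SD, n = 3 per group), with a log2 change of 0.38 ± 0.07 (SE, n = 3 per group; edgeR adjusted p = 0.00138). NMNAT2, which completes NAD synthesis in neurons, rose with a log2 change of 0.46 ± 0.08 (SE, n = 3 per group; edgeR adjusted p = 0.000121). MAT2A, which makes S-adenosylmethionine, averaged 442 ± 10.6 CPM after β-alanine and 394 ± 11.5 CPM in controls (SD, n = 3 per group), with a log2 change of 0.17 ± 0.04 (SE, n = 3 per group; edgeR adjusted p = 0.00193). Its regulatory partner MAT2B rose, with a log2 change of 0.19 ± 0.05 (SE, n = 3 per group; edgeR adjusted p = 0.00665), a call lost without control library 3 (edgeR adjusted p = 0.0686).

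Among partners of the enzyme complexes, the changes were again mixed. Of 13 partners of the lysine 4 methyltransferases, 2 rose and 3 fell. MEN1, the menin subunit of the KMT2A and KMT2B complexes, averaged 79.3 ± 3.60 CPM after β-alanine and 108 ± 2.00 CPM in controls (SD, n = 3 per group), with a log2 change of -0.44 ± 0.05 (SE, n = 3 per group; edgeR adjusted p = 5.32e-07). Of 17 corepressors of HDAC1 and HDAC2, 3 rose and 2 fell. RCOR2, a partner of KDM1A, fell, with a log2 change of -0.61 ± 0.09 (SE, n = 3 per group; edgeR adjusted p = 3.37e-05), and SAP30, a SIN3 subunit, rose with a log2 change of 0.37 ± 0.08 (SE, n = 3 per group; edgeR adjusted p = 0.00217). Of 5 corepressors of HDAC3, none was called by edgeR, DESeq2 or limma-voom, and 2 were lower at an unadjusted p under 0.05 in edgeR and fell without β-alanine library 1. Of 10 partners of EZH1 and EZH2, PHF1, which guides the complex to chromatin, rose with a log2 change of 0.25 ± 0.05 (SE, n = 3 per group; edgeR adjusted p = 0.000552), and SUZ12, a core subunit, fell, with a log2 change of -0.12 ± 0.04 (SE, n = 3 per group; edgeR adjusted p = 0.0371), a call lost without treated library 2 or 3 or control library 1 or 3 (edgeR adjusted p between 0.11 and 0.174) and in 4 other alternatives. Of 28 partners of the acetyltransferases, 4 rose and 5 fell, with TADA3 at a log2 change of 0.18 ± 0.04 (SE, n = 3 per group; edgeR adjusted p = 0.00231) and SGF29, a reader subunit of SAGA, at a log2 change of -0.52 ± 0.13 (SE, n = 3 per group; edgeR adjusted p = 0.004).

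Of the 24 enzymes called, 8 share exon positions with another gene annotated in GENCODE 29: KAT6B, KDM4A, EHMT2, KMT2A, SETD9, SIRT2, HDAC8 and HDAC11. Their counts are uncertain in so far as shared reads were counted, which the sources used here do not state. Over all genes tested with a known exon length, the median log2 change was 0.015 in the shortest 4159 genes and -0.02 in the longest 4156. Of the shortest, 428 rose and 293 fell, and of the longest 609 rose and 799 fell. The enzymes that rose and fell had median exon lengths of 6.74 and 8.62 kb. The shares called over all genes are not matched for length.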

How the data were processed

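The authors deposited raw read counts per gene symbol for the 6 libraries in a single table. Reads were handled with Trimmomatic 0.39, STAR 2.7.3a and featureCounts 2.0.1 on build GRCh38, and bcl2fastq and DESeq2 were also listed, per the submitters' processing notes. How strand was used, which annotation served and which settings applied is not given in the sources used here. Per the labels' protocols, libraries were made with the TruSeq RNA kit from RNA of integrity number above 7.0. Groups and library numbers came from the sample titles.

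Genes were filtered with filterByExpr and scaled by TMM. edgeR 4.0.16 (R 4.3.3) gave the two-sided quasi-likelihood test, with robust shrinkage, on all 6 libraries with no covariate, with Benjamini-Hochberg adjustment over 17331 genes and a threshold of 0.05. Standard errors are the log2 change divided by the square root of the F statistic, and CPM uses TMM-scaled totals. The biological coefficient of variation was 4.35%. On simulated counts with these library sizes (17047 genes), changes of 1.25-fold were found for 50% of altered genes and of 1.5-fold for 79.2%. Changes of 2-fold were found for 96% and of 3-fold for 98%, and 8 among 168 calls were false. From 48 to 50 genes were altered at each size, against 4830 called in the data, so these shares need not carry over. Changes smaller than 1.25-fold were not simulated.

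Enzymes and lists were chosen with earlier results of these data known. Full statistics were given for enzymes past the threshold with an average log2 CPM of at least 1, and for up to 4 genes with the smallest p per partner list. Uncalled enzymes are given as means, or per library where single libraries differed or a close relative was called. A marker gene is not reported here. Alternatives were other scaling (RLE factors or library totals), other filters (none, or at least 1 CPM in 3 libraries), DESeq2 1.42.0, limma-voom (limma 3.58.1), no robust shrinkage, a replicate block, thinning to the smallest library, a threshold of 0.01 and leaving out each library. Positions and promoter windows are from RefSeq on GRCh38.p14, and exon lengths from GENCODE 29.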

Additional observations from a re-analysis of the deposited data

How the results depend on the processing

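Of the 35 enzymes called in at least 1 of the 16 fits, none changed direction. They were picked as called and the fits reuse the same libraries, so a change of direction was unlikely from the start. Of the 32 never called, 14 changed sign in at least 1 alternative, each with an absolute log2 change of at most 0.053 on all 6 libraries. The enzymes that fell numbered 9 with library totals, 9 with the DESeq2 Wald test and 5 at an adjusted p threshold of 0.01, against 14. Leaving out 1 library at a time gave between 7 and 16 enzymes that rose and between 8 and 17 that fell. Over all genes tested, 2441 rose and 2389 fell, against 1454 and 1391 at the threshold of 0.01, and between 1501 and 3204 rose and between 1473 and 3294 fell when 1 library was left out. Of the genes on the 13 lists, S phase included, 25 rose and 36 fell, against 16 and 15 at the threshold of 0.01, and between 16 and 33 rose and between 17 and 71 fell when 1 library was left out. With the S-phase list left out, 21 fell, 8 at the threshold of 0.01, and between 8 and 47 when 1 library was left out. No share was computed over the lists together. Of 40 listed genes that came under the rule for named genes, 23 held in every fit. These genes were picked by their p in the same data, so nothing particular to them is read from this count. The deviations of same-numbered libraries correlated at 0.050, 0.0037 and 0.072, and those of differently numbered libraries between -0.0718 and 0.00796. These values do not settle whether replicate numbers pair the libraries. With the replicate number as a block, 11 enzymes rose and 14 fell, KDM5A being added, and over all genes 2564 rose and 2608 fell. The cause of these differences was not tested. The standard errors of HDAC9, HDAC10, KDM4D and SIRT4, the enzymes under 4 CPM in both group means, ran from 0.17 to 0.24 on the log2 scale.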

Other observations

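Further chromatin enzymes outside the symbol series were followed in the same test. Among 6 other acetyltransferases and coactivators, 1 rose and none fell (1 was lower at an unadjusted p under 0.05 in edgeR, 0 with DESeq2 and limma-voom). NCOA3, a coactivator of nuclear receptors, had 132, 161 and 157 CPM in the β-alanine libraries, against 94.8, 88.01 and 98.8 CPM in the control libraries. The groups did not overlap, with a log2 change of 0.69 ± 0.07 (SE, n = 3 per group; edgeR adjusted p = 3.55e-05). Of 9 genes of the arginine methyltransferase list, 1 rose and 2 fell. PRMT6, which places asymmetric dimethylation on arginine 2 of histone H3, had 29.2, 27.98 and 27.96 CPM in the β-alanine libraries, against 39.6, 39.8 and 38.96 CPM in the control libraries. All treated libraries lay below the controls, with a log2 change of -0.48 ± 0.06 (SE, n = 3 per group; edgeR adjusted p = 4.31e-06). PRMT3, which methylates a ribosomal protein, rose with a log2 change of 0.42 ± 0.07 (SE, n = 3 per group; edgeR adjusted p = 8.59e-05). PRMT7 fell, with a log2 change of -0.20 ± 0.06 (SE, n = 3 per group; edgeR adjusted p = 0.0116), a call lost without treated library 2 or control library 2 (edgeR adjusted p between 0.0986 and 0.112).

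Of 10 other Jumonji proteins tested, 1 rose and 2 fell. JMJD6, a nuclear protein that acts in splicing, averaged 78.9 ± 2.13 CPM after β-alanine and 62.2 ± 2.46 CPM in controls (SD, n = 3 per group), with a log2 change of 0.35 ± 0.05 (SE, n = 3 per group; edgeR adjusted p = 1.87e-05). RIOX2, a ribosomal oxygenase, fell, with a log2 change of -0.28 ± 0.06 (SE, n = 3 per group; edgeR adjusted p = 0.000999). Of 14 other lysine methyltransferases, 3 fell and none rose (none by DESeq2, limma-voom or an unadjusted p under 0.05), with NSD3, NSD2 and PRDM2 each at a log2 change between -0.18 and -0.10 and each losing its call without 3 or more of the 6 libraries. Of 18 genes of Polycomb repressive complex 1, 4 rose and 1 fell. YAF2 rose, with a log2 change of 0.27 ± 0.07 (SE, n = 3 per group; edgeR adjusted p = 0.0073), a call lost without treated library 3 (edgeR adjusted p = 0.0539), and CBX6, a reader of lysine 27 methylation, fell, with a log2 change of -0.16 ± 0.04 (SE, n = 3 per group; edgeR adjusted p = 0.00938), lost without treated library 2 or control library 2 (edgeR adjusted p between 0.0568 and 0.0721).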
